A study of Mus musculus with 12 samples.

Results

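Transcripts of the proteasome were followed in interscapular brown adipose tissue (BAT) of mice with and without thioredoxin-interacting protein (Txnip), at 2 ambient temperatures. All rows of the expression table whose symbol starts with Psm, a letter from a to g and a number were taken, and Nfe2l1 was added, which gave 51 genes of 25124. They comprise 15 subunits of the 20S core (8 alpha and 7 constitutive beta), 5 genes of the immunoproteasome and its activator, 17 subunits of the 19S cap (9 of the base and 8 of the lid), 7 assembly factors, 3 other activators or inhibitors, thymus-specific Psmb11, Nfe2l1, and 2 further matches of the symbol rule. Of those 2, Psmc3ip encodes a recombination factor and no subunit, and Psme2b is a retrocopy of Psme2. Psma8 and Psmb11 were listed at no more than 0.144 and 0.127 TPM (a transcript level scaled to transcript length and to the library) in any library and were not tested, which left 49 genes tested in each comparison.

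The libraries came from 10-week-old male WT mice and Txnip-deficient (TxnipKO, written Txnip-/- here) mice, both held for 1 week at room temperature (RT, 23 °C) or at thermoneutrality (TN, 30 °C), with 3 libraries in each of the 4 groups. The Txnip-/- mice were kept on a C57B/6J background, and the sources used here tie the deletion to no cell type. Whether each library was made from 1 mouse was not given in the sources used here, and p-values measure only the spread between libraries. No sequencing batch was given, so a batch that followed temperature could not be told apart from temperature. Library depth ran from 29.93 M to 47.44 M reads (M, mega), and TPM values do not keep it. Txnip stood at 564, 581 and 694 TPM in WT mice at RT and 1238, 1083 and 1072 at TN, against 24.8, 26.9 and 35.4 and 11.02, 14.4 and 10.5 in Txnip-/- mice, so the targeted gene was low in every Txnip-/- library. Markers of brown adipocytes were high in all libraries, with 8 genes summing to 11344 to 11957 TPM in WT mice at RT and 3689 to 4305 TPM, the lowest group, in Txnip-/- mice at TN. In bulk tissue, fewer cells of a type and less RNA per cell cannot be told apart.

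The 26S proteasome degrades proteins tagged with ubiquitin. Its 20S core is a barrel of alpha rings around beta rings, of which Psmb5, Psmb6 and Psmb7 carry the constitutive proteolytic sites, and the 19S cap binds, unfolds and feeds in the substrate. Interferon-responsive and immune cells also make the immunoproteasome, in which Psmb8, Psmb9 and Psmb10 take the places of Psmb5, Psmb6 and Psmb7 and favor peptides suited to MHC class I, while Psme1 and Psme2 form the PA28 activator ring. Nfe2l1 is a membrane-anchored transcription factor that induces proteasome subunit genes when proteasome capacity is short, a role also known in brown fat under cold.

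The promoters of the catalytic subunits that replace each other are shown because the members of each pair behaved differently between temperatures. The RefSeq promoter table (GRCm38.p6, the build of mm10) held a window for 43 of the 51 genes, and none for Psmb7. Each line gives the 250 bases before the gene start, 5′ to 3′ on the gene's strand, in lower case, with matches to 4 short motifs in capitals.
Psmb8, chr17:34197945-34198194, plus strand: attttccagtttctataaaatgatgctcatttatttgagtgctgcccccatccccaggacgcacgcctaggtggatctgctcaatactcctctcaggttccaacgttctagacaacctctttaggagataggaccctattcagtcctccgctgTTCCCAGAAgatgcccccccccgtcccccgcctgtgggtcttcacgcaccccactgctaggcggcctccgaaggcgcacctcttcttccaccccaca
Psmb9, chr17:34187331-34187580, minus strand: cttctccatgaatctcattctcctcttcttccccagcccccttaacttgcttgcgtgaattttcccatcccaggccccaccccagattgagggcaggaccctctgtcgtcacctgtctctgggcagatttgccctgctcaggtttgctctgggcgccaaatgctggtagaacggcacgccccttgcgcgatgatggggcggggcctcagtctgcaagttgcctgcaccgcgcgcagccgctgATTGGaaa
Psmb10, chr8:105938393-105938642, minus strand: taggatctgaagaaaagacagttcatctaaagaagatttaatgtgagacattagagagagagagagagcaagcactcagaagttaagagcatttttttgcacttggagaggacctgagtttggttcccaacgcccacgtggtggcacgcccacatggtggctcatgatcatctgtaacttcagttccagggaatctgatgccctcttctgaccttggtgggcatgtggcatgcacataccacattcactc
Psmb5, chr14:54617996-54618245, minus strand: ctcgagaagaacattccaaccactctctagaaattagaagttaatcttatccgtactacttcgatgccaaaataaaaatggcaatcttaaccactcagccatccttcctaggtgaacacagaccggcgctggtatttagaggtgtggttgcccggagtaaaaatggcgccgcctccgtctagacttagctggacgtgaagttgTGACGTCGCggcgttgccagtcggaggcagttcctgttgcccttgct
Psmb6, chr11:70525107-70525356, plus strand: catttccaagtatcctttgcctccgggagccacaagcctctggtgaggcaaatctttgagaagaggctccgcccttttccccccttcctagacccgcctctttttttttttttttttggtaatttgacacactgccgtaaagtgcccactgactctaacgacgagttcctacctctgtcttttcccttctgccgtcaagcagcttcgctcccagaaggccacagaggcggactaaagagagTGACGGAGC

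The motifs were searched on both strands in 300-base windows, 250 before the start and 50 from it. They were GAAANNGAA, the core of the interferon-stimulated response element, present in 8.56% of all 32851 windows, TTCNNNGAA, the STAT-bound gamma-activated sequence (GAS), in 8.30%, TGACNNNGC, the core of the antioxidant response element (ARE), the kind of site bound by Nfe2l1 and Nfe2l2, in 12.4%, and the CCAAT box (CCAAT) in 37.4%. The capitals in Psmb8 mark a GAS match that begins 97 bases before the start. In Psmb5 and Psmb6 they mark ARE core matches that begin 47 and 9 bases before the start, and in Psmb9 a CCAAT box read on the opposite strand that begins 8 bases before it. Psmb10 had none of the 4 in its window. Psme1 held an interferon-stimulated core in the bases after its start, which are not printed. By class, the interferon-stimulated core lay in 1 of 5 immunoproteasome windows, 2 of 11 of the 20S core (Psmb3 and Psmb4) and 2 of 14 of the 19S cap (Psmc2 and Psmd4). GAS lay in 1 of 5, 0 of 11 and 1 of 14 (Psmd2), the ARE core in 0 of 5, 2 of 11 and 2 of 14 (Psmc6 and Psmd12), and the CCAAT box in 1 of 5, 5 of 11 and 3 of 14. The window of Psmc1, among the CCAAT matches of the cap, was set on a start 2129 bases from that of the counted transcript. None of the capitals shown belongs to 2 motifs. A match of letters is a description of the window and no evidence of binding. The starts of Psmb9 and Tap1, the peptide transporter gene on the other strand, lie 226 bases apart, so 275 bases of their windows are shared.

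By their median levels per length, the 20S core stood above the 19S cap and both above the catalytic subunits of the immunoproteasome, with overlap between single genes. Mean TPM over the 12 libraries ran from 34.5 (Psma5) to 225 (Psmb7) among the 14 tested core subunits, with a median of 136. In the 19S cap it ran from 44.9 (Psmd11) to 178 (Psmd8), with a median of 68.9. Psmb8, Psmb9 and Psmb10 averaged 39.1, 23.5 and 35.03 TPM, whereas Psme1 and Psme2 averaged 122 and 141 TPM, within the range of the core subunits. The core subunit Psma5 was below Psmb8, Psmb10 and every cap subunit. Nfe2l1 averaged 187 TPM and ranked the fourth highest of the 51. Across the 4 groups, the highest group mean of a core subunit exceeded its lowest by at most 1.22 times (Psmb3), compared with 1.54 times in the cap (Psmd6) and 3.17 times in the immunoproteasome (Psmb8).

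The first comparison asked which proteasome transcripts differed between thermoneutral and room temperature housing, in WT and in Txnip-/- mice. The catalytic subunits of the immunoproteasome were higher at TN in both genotypes. Psmb8, the subunit that replaces Psmb5, measured 19.3, 21.2 and 18.7 TPM in WT mice at RT, 22.3, 20.9 and 22.4 in Txnip-/- mice at RT, 35.4, 56.6 and 64.3 in WT mice at TN and 64.6, 72.1 and 51.1 in Txnip-/- mice at TN. All 6 TN libraries lay above all 6 RT libraries. Its level rose 2.49-fold in WT mice (log2 fold change 1.32 ± 0.182 SE, adjusted p = 0.000273) and 2.75-fold in Txnip-/- mice (1.46 ± 0.182, adjusted p = 7.96e-05, limma over 12486 genes). Fold changes here and below are on the scale of log2(TPM + 1).

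Psmb9, which replaces Psmb6, measured 12.9, 14.7 and 13.3 TPM in WT mice at RT, 14.9, 13.2 and 17.1 in Txnip-/- mice at RT, 21.3, 34.1 and 33.9 in WT mice at TN and 34.1, 40.8 and 31.97 in Txnip-/- mice at TN. It rose by 1.04 ± 0.163 (log2) in WT mice and 1.19 ± 0.163 in Txnip-/- mice, with adjusted p = 0.00052 and 0.000141 by limma. Psmb10, which replaces Psmb7, measured 21.4, 21.6 and 18.4 TPM in WT mice at RT, 23.9, 23.1 and 24.1 in Txnip-/- mice at RT, 32.9, 48.00 and 53.3 in WT mice at TN and 50.7, 54.9 and 47.98 in Txnip-/- mice at TN. It rose by 1.06 ± 0.140 in WT mice and 1.08 ± 0.140 in Txnip-/- mice, with adjusted p = 0.000218 and 0.000103. For both genes, as for Psmb8, no TN library reached down to the RT range. WT replicate 1 at TN was the lowest of the TN libraries for all 3 genes, and without it the WT log2 fold changes were 1.57, 1.26 and 1.27 for Psmb8, Psmb9 and Psmb10. Without stated strand in the counting, reads in the exons that Psmb9 shares with Tap1, and Psmb8 with the antisense gene Gm20496, cannot be told apart; 3.44% and 9.97% of the 75-base runs of Psmb9 and Psmb8 transcripts were shared in this way, and none of Psmb10.

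**Figure D1:**
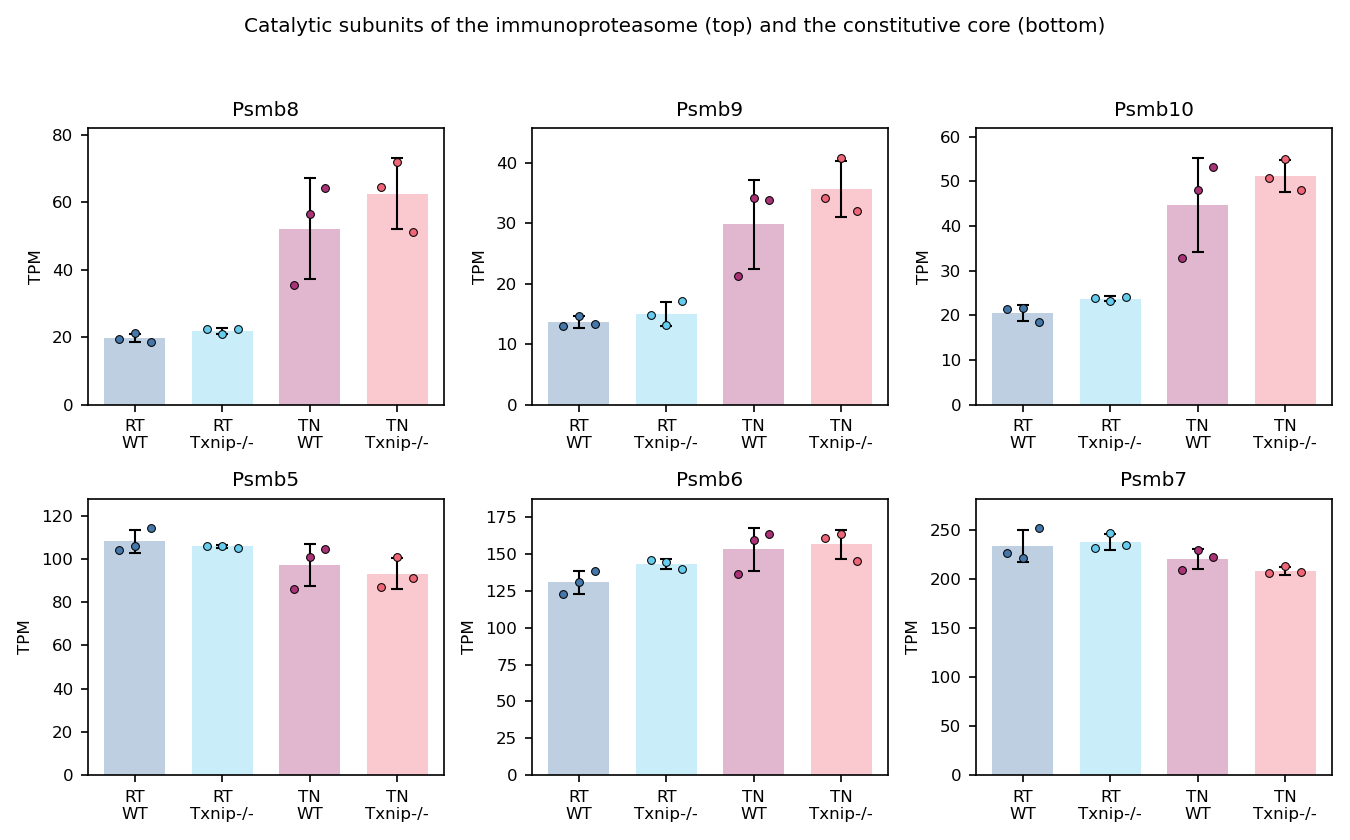
TPM of the 6 catalytic subunits by group; each dot is a library, bars are group means and error bars the SD (n = 3 libraries). The top row (Psmb8, Psmb9, Psmb10) is higher in every TN library than in any RT library, while the TN and RT libraries of the WT mice overlap in the bottom row (Psmb5, Psmb6, Psmb7).

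The subunits they replace were not called in either genotype. Psmb5 measured 104, 106 and 114 TPM in WT mice at RT, 106, 106 and 105 in Txnip-/- mice at RT, 85.96, 101 and 104 in WT mice at TN and 87.1, 101 and 91.4 in Txnip-/- mice at TN. Psmb6 measured 123, 131 and 139 TPM in WT mice at RT, 146, 145 and 139.7 in Txnip-/- mice at RT, 137, 159 and 163 in WT mice at TN and 161, 163 and 145 in Txnip-/- mice at TN. Psmb7, the most abundant of the 51 genes, measured 227, 222 and 252 TPM in WT mice at RT, 232, 248 and 235 in Txnip-/- mice at RT, 209, 230.2 and 223 in WT mice at TN and 206, 213 and 207 in Txnip-/- mice at TN. TN and RT libraries overlapped for all 3 in WT mice, and in Txnip-/- mice for Psmb6, while Psmb5 and Psmb7 were lower in every TN library. The TN over RT log2 fold changes in WT mice were -0.16 ± 0.0784 for Psmb5, 0.22 ± 0.0766 for Psmb6 and -0.080 ± 0.0607 for Psmb7, and in Txnip-/- mice they were -0.18 ± 0.0784, 0.12 ± 0.0766 and -0.19 ± 0.0607. Psmb6 in WT mice and Psmb7 in Txnip-/- mice had adjusted p = 0.0302 and 0.0214 by limma, with folds inside the limit for a call. Runs shared with other genes made up 36.8% of Psmb5 (with Gm3375 and Mir686), 35.2% of Psma5 (with Gm8394 and Gm12989) and 7.83% of Psmb7 (with Nek6), so their levels are less certain. Other members with large shares were Psmd9 (24.3%), Psme2 (22.9%), Psmc3ip (16.04%), Psma3 (14.3%) and Psmb3 (10.3%).

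Within each library, the share of Psmb8 in the summed TPM of Psmb8 and Psmb5 was 15.6, 16.7 and 14.04% in WT mice at RT, 17.4, 16.5 and 17.6% in Txnip-/- mice at RT, 29.2, 35.99 and 38.1% in WT mice at TN and 42.6, 41.6 and 35.9% in Txnip-/- mice at TN. The share of Psmb9 in the sum of Psmb9 and Psmb6 was 9.51, 10.1 and 8.77% in WT mice at RT, 9.24, 8.32 and 10.9% in Txnip-/- mice at RT, 13.5, 17.6 and 17.2% in WT mice at TN and 17.5, 20.01 and 18.1% in Txnip-/- mice at TN. For Psmb10 in the sum of Psmb10 and Psmb7, it was 8.60, 8.88 and 6.81% in WT mice at RT, 9.34, 8.53 and 9.31% in Txnip-/- mice at RT, 13.6, 17.3 and 19.3% in WT mice at TN and 19.7, 20.5 and 18.8% in Txnip-/- mice at TN. Every TN library exceeded every RT library in all 3 pairs. The log2 ratio of each pair was higher at TN by 1.60 for Psmb8 over Psmb5 (3.04-fold), 1.00 for Psmb9 over Psmb6 (1.99-fold) and 1.24 for Psmb10 over Psmb7 (2.36-fold). For each, the two-sided exact permutation test of temperature within genotype gave p = 0.005, the smallest its 400 relabellings allow, and 0.03 after Benjamini-Hochberg adjustment over 18 tests. Within a single genotype, 3 libraries against 3 cannot go below p = 0.1 in the exact test, and all 6 such tests between temperatures reached it. Between genotypes within temperature, the log2 ratios were higher in Txnip-/- mice by 0.27, 0.12 and 0.24, with exact permutation p = 0.045, 0.315 and 0.035, adjusted to 0.162, 0.334 and 0.158, none of which passed.

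**Figure D2:**
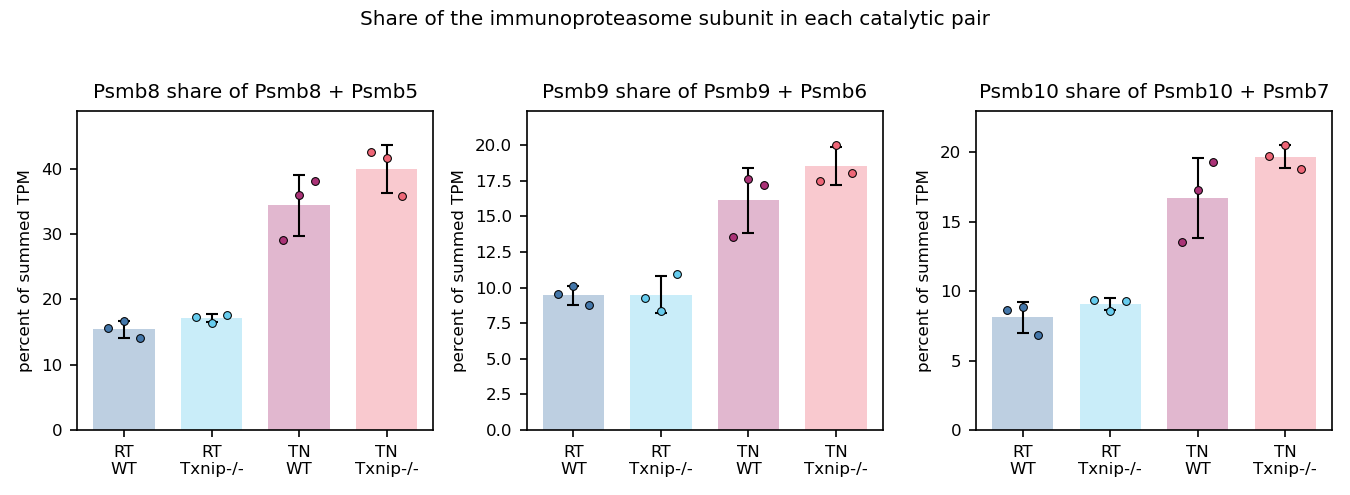
Share of the immunoproteasome subunit in the summed TPM of each catalytic pair (percent), by group; dots are libraries, bars group means and error bars the SD (n = 3 libraries). Psmb8 has the highest shares, which at TN lie between 29.2 and 42.6%, while all 3 stay the minor partner in every library.

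Of the activator genes of the same class, Psme1 was called between temperatures in Txnip-/- mice and Psme2 in neither genotype. Psme1 measured 116, 116 and 104 TPM in WT mice at RT, 102, 101 and 94.2 in Txnip-/- mice at RT, 138, 140.0 and 136 in WT mice at TN and 139, 139.7 and 133 in Txnip-/- mice at TN. It rose in Txnip-/- mice (log2 fold change 0.47 ± 0.0582, adjusted p = 8.17e-05), and in WT mice its TN over RT value of 0.30 ± 0.0582 (adjusted p = 0.00165) lay inside the fold limit for a call. All TN libraries exceeded all RT libraries. Centering each library on its median reduced the Txnip-/- value to 0.28, below the fold limit, and the WT value to 0.12 (adjusted p = 0.115 by limma). Upper-quartile scaling gave 0.20 in WT mice, and leaving out WT replicate 1 or 2 at RT gave 0.33 and 0.33, past the fold limit. Psme2, its partner in the PA28 ring, measured 152, 151 and 136 TPM in WT mice at RT, 133, 147 and 142 in Txnip-/- mice at RT, 120.1, 148 and 154 in WT mice at TN and 136, 149.8 and 126 in Txnip-/- mice at TN. The groups overlapped, and the TN over RT log2 fold changes were -0.066 ± 0.0957 in WT mice (adjusted p = 0.585) and -0.040 ± 0.0957 in Txnip-/- mice (0.747, limma). Psme2b, at 3.38 to 5.33 TPM, shares 60.2% of its 75-base runs with Psme2, or 22.9% of those of Psme2, so the levels of both are uncertain. Psme2b did not pass in any comparison.

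Ptprc and macrophage transcripts moved with temperature too, and also with genotype. Ptprc, the pan-leukocyte gene, measured 1.31, 1.30 and 1.33 TPM in WT mice at RT, 4.20, 2.62 and 3.42 in Txnip-/- mice at RT, 3.10, 6.18 and 6.96 in WT mice at TN and 14.4, 13.97 and 11.7 in Txnip-/- mice at TN. The summed TPM of 7 macrophage genes, most of it from Lyz2, lay at 48.4 to 53.1 in WT mice at RT, 84.6 to 149.8 in Txnip-/- mice at RT, 115 to 210.2 in WT mice at TN and 341 to 467 in Txnip-/- mice at TN. All 7 rose at TN in both genotypes and all 7 were higher in Txnip-/- mice at TN, with 3 of 6 tested higher in Txnip-/- mice at RT. Of all genes, 31.4% and 30.9% rose at TN in WT and Txnip-/- mice, and 6.49% at TN and 0.760% at RT were higher in Txnip-/- mice. The T cell list (5 genes) summed to 1.61 to 2.09, 3.05 to 3.999, 2.35 to 7.02 and 9.82 to 14.4 TPM in the same order of groups, the B cell list (4 genes) to 1.40 to 2.97, 1.35 to 2.29, 3.92 to 4.85 and 4.66 to 9.57, and the dendritic cell list (4 genes) to 1.10 to 1.39, 1.97 to 3.16, 2.99 to 5.67 and 9.25 to 13.5. The B cell sums of the genotypes overlapped at both temperatures, and their mean at RT was lower in Txnip-/- mice (1.82 against 2.30 TPM). At RT, limma tested 1 of the 5 T cell, 1 of the 4 B cell and 0 of the 4 dendritic cell genes. Between temperatures it tested 2 of each list, the others averaging below 1 TPM.

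Against these, the summed TPM of Psmb8, Psmb9 and Psmb10 lay at 50.4 to 57.5, 57.1 to 63.7, 89.6 to 151 and 131 to 168. The ranges of the macrophage sum overlapped between Txnip-/- mice at RT and WT mice at TN, while those of the 3 subunits did not. At TN, the mean macrophage sum went from 160.0 ± 48.00 TPM (SD, n = 3) in WT mice to 415 ± 66.3 in Txnip-/- mice, and the subunit sum from 127 ± 32.7 to 149 ± 18.4. WT replicate 1 at TN had the lowest value of its group for both. Endothelial markers (3 genes) summed to 191 to 199.6, 158 to 191, 232 to 293 and 259 to 289.7 TPM. Skeletal muscle markers (4 genes) summed to 2.30 to 2.73, 14.6 to 33.5, 2.005 to 11.6 and 2.39 to 11.8 TPM. All 4 were called lower at TN in Txnip-/- mice, against 8.27% of all genes, and 0 were called in WT mice. The part of leukocytes and of other cell types in the immunoproteasome levels was not tested.

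Over all 49 tested members, 5 were called higher at TN than at RT in WT mice and 2 lower, where a call needed a fold change below 0.8 or above the reciprocal of 0.8 and adjusted p under 0.05. Across all 12486 genes tested, 31.4% were called higher and 6.39% lower. In Txnip-/- mice 5 were called higher and 3 lower, with 30.9% and 8.27% of all genes. The members called higher were thus a smaller share than among all genes. Groups of libraries did not overlap for 17 of 49 members in WT mice and 28 of 49 in Txnip-/- mice, against 57.5% and 61.1% of all genes. The median log2 fold change of all genes was 0.18 in WT and 0.15 in Txnip-/- mice. 71.2% and 66.3% of genes had higher values at TN, while the listed genes held 55.38 to 56.45% of the TPM total at TN and 56.55 to 57.55% at RT. Relative to the median gene, Psmb8 remained higher by 1.13 and 1.31, Psmb9 by 0.86 and 1.04, and Psmb10 by 0.88 and 0.92. With each library centered on its median, the calls became 4 higher and 6 lower in WT mice, and 3 higher and 13 lower in Txnip-/- mice, where 15.4% of all genes were higher and 14.7% lower in WT mice and 18.4% and 19.5% in Txnip-/- mice. With upper-quartile scaling they were 5 higher and 2 lower in WT mice, where 23.0% and 9.65% of all genes were called, and 5 and 5 in Txnip-/- mice, where 25.7% and 11.7% were. Both genotype groups of one temperature enter the same fit, so the 2 temperature comparisons share their estimate of the spread, and they share their libraries with the comparisons of genotypes.

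**Figure D3:**
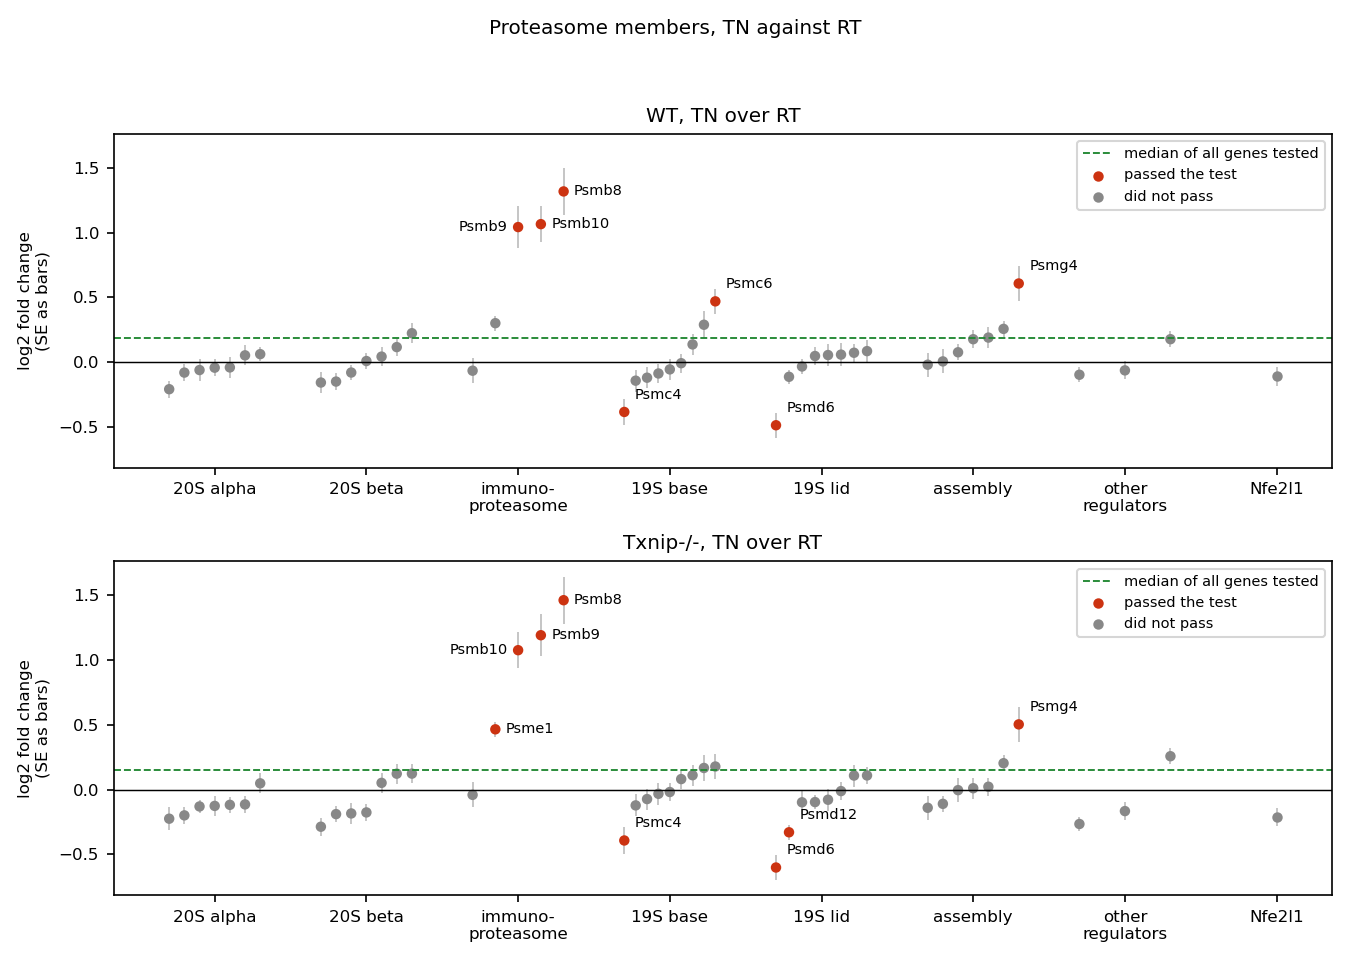
Log2 fold change of TN over RT for the tested members except Psmc3ip and Psme2b, grouped by class, in WT (top) and Txnip-/- mice (bottom); each dot is a gene, error bars are SE, red dots passed the test and are named, and the dashed line is the median of all 12486 genes. The immunoproteasome catalytic subunits stand above 1 in both genotypes, and most core and cap subunits lie below the dashed line.

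No subunit of the 20S core was called by limma between temperatures in either genotype (0 of 14 in each), where a call needed both the fold and the p, against 31.4% of all genes called higher and 6.39% lower in WT mice and 30.9% and 8.27% in Txnip-/- mice. Adjusted p was under 0.05, with a fold inside the limit, for 2 of the 14 in WT mice (Psma1, 0.0207, and Psmb6, 0.0302) and for 4 in Txnip-/- mice (Psma1, 0.025, Psmb2, 0.0402, Psmb3, 0.00475, and Psmb7, 0.0214). At any fold, 40.4% of all genes were higher and 9.87% lower with adjusted p under 0.05 in WT mice. In Txnip-/- mice these shares were 37.9% and 13.5%. An unadjusted p under 0.05 was found for 3 and 7 of the 14, against 56.9% and 57.5% of all genes. The median log2 fold change of the 14 was -0.042 in WT mice and -0.13 in Txnip-/- mice, which is 0.23 and 0.28 below the median of all genes. The WT value changed sign, to 0.056, without WT replicate 1 at TN. In WT mice the values ran from -0.21 for Psma1 to 0.22 for Psmb6, and in Txnip-/- mice from -0.29 for Psmb3 to 0.12 for Psmb4, 2 structural beta subunits without proteolytic sites. Summed over the core, the libraries held 1809 to 1948 TPM in WT mice at RT, 1929 to 2046 in Txnip-/- mice at RT, 1691 to 1939 in WT mice at TN and 1807 to 1895 in Txnip-/- mice at TN. With median centering, 3 core subunits were called lower in WT mice (Psma1, Psmb3 and Psmb5) and 6 in Txnip-/- mice (Psma1, Psma3, Psmb2, Psmb3, Psmb5 and Psmb7), against 14.7% and 19.5% of all genes. Upper-quartile scaling called Psmb3 lower in Txnip-/- mice, and 11.7% of all genes. The other alpha subunits, Psma2, Psma4, Psma5, Psma6 and Psma7, and Psmb1, Psmb4 and Psmb6 among the beta subunits, were not called under either scaling.

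In the 19S cap, 1 of 17 subunits rose and 2 fell at TN in WT mice, and 3 fell in Txnip-/- mice. Among all genes 31.4% rose and 6.39% fell in WT mice, and 30.9% rose and 8.27% fell in Txnip-/- mice. Markers of brown adipocytes fell over the same contrasts, 5 of 8 in WT mice and 7 of 8 in Txnip-/- mice, with median log2 fold changes of -0.66 and -1.64. Their summed TPM was 11344 to 11957 and 6692 to 7587 in WT mice at RT and TN, and 8535 to 10761 and 3689 to 4305 in Txnip-/- mice, and their part in the levels of proteasome subunits was not tested. The 4 general adipocyte genes had median log2 fold changes of -0.045 in WT and -0.090 in Txnip-/- mice. In WT mice 1 was called higher and 1 lower, and in Txnip-/- mice 1 lower. They summed to 17951 to 18636 and 14611 to 16151 TPM in WT mice at RT and TN. In Txnip-/- mice the sums were 17075 to 20161 and 14558 to 16298 TPM. Psmd6, a lid subunit, measured 65.6, 65.2 and 73.6 TPM in WT mice at RT, 59.7, 77.6 and 72.9 in Txnip-/- mice at RT, 45.2, 46.9 and 52.9 in WT mice at TN and 45.9, 46.98 and 43.9 in Txnip-/- mice at TN. It fell by 0.49 ± 0.0953 on the log2 scale in WT mice (adjusted p = 0.00175, limma) and by 0.60 ± 0.0953 in Txnip-/- mice (0.000367). The highest TN library of Psmd6 was below the lowest RT library. Psmc4, an ATPase of the base, measured 74.8, 69.3 and 90.6 TPM in WT mice at RT, 69.6, 78.6 and 87.5 in Txnip-/- mice at RT, 55.3, 63.6 and 59.3 in WT mice at TN and 56.9, 60.1 and 61.1 in Txnip-/- mice at TN. It fell by 0.38 ± 0.103 in WT mice (adjusted p = 0.00956) and by 0.39 ± 0.103 in Txnip-/- mice (0.00787), and here too TN and RT libraries did not overlap. The replicate 3 libraries at RT held the highest Psmc4 values of their groups. Without WT replicate 3 the WT value was -0.28, and without Txnip-/- replicate 3 the Txnip-/- value was -0.31, both inside the fold limit.

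Psmd12, a lid subunit, measured 57.3, 54.98 and 60.9 TPM in WT mice at RT, 60.5, 64.3 and 64.2 in Txnip-/- mice at RT, 53.3, 58.3 and 57.4 in WT mice at TN and 49.1, 48.7 and 52.1 in Txnip-/- mice at TN. It fell in Txnip-/- mice (log2 fold change -0.33 ± 0.0595, adjusted p = 0.000842), and was at -0.034 ± 0.0595 in WT mice (adjusted p = 0.659). The Txnip-/- libraries at TN held the lowest 3 values of the 12. Its call stood close to the fold limit and was lost, with log2 fold changes of -0.32 to -0.31, when RT replicate 2 or 3 or TN replicate 1 or 2 of the Txnip-/- group was left out. The interaction of genotype and temperature for Psmd12 was -0.30 ± 0.0841 (unadjusted p = 0.00445, adjusted p = 0.211 by limma), so the difference between genotypes did not pass. Psmc6, another ATPase of the base, measured 85.6, 84.6 and 82.8 TPM in WT mice at RT, 106, 94.8 and 89.3 in Txnip-/- mice at RT, 101, 123 and 129 in WT mice at TN and 117, 97.9 and 113 in Txnip-/- mice at TN. It rose in WT mice (0.47 ± 0.0975, adjusted p = 0.00244) and was at 0.18 ± 0.0975 in Txnip-/- mice (0.145), with an interaction of -0.29 ± 0.138 (adjusted p = 0.414) that did not pass. With median centering the WT value of Psmc6 was 0.29, inside the fold limit.

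The other 13 cap subunits did not pass in either genotype, although median centering called Psmc5 lower in WT mice. Of the 13, the ATPases Psmc1, Psmc2, Psmc3 and Psmc5 and the base subunits Psmd1, Psmd2 and Psmd4 lay between -0.14 (Psmc5) and 0.29 (Psmc1) in WT mice, and between -0.12 (Psmc5) and 0.17 (Psmc1) in Txnip-/- mice. The lid subunits Psmd3, Psmd7, Psmd8, Psmd11, Psmd13 and Psmd14, the last of which is the deubiquitinase of the lid, lay between -0.11 (Psmd3) and 0.085 (Psmd11) in WT mice, and between -0.098 (Psmd14) and 0.11 (Psmd13) in Txnip-/- mice. The median over the 17 cap subunits was -0.0084 in WT mice and -0.032 in Txnip-/- mice, 0.19 and 0.18 below that of all genes. For comparison, the median of the 5 immunoproteasome genes was 1.04 and 1.08, or 0.86 and 0.92 above it.

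Among the assembly factors, Psmg4 rose at TN in both genotypes. Psmg4, which pairs with Psmg3 to chaperone the alpha ring, measured 17.8, 16.03 and 17.7 TPM in WT mice at RT, 20.5, 18.4 and 21.4 in Txnip-/- mice at RT, 21.7, 24.95 and 34.96 in WT mice at TN and 29.5, 29.02 and 28.1 in Txnip-/- mice at TN. The TN over RT log2 fold change was 0.61 ± 0.133 in WT mice (adjusted p = 0.00331) and 0.50 ± 0.133 in Txnip-/- mice (0.0082), and TN and RT libraries did not overlap. With median centering the Txnip-/- value was 0.31 (adjusted p = 0.0716) and no longer passed. Its partner Psmg3 was the lowest of the 7 assembly factors, at -0.020 ± 0.0936 in WT mice and -0.14 ± 0.0936 in Txnip-/- mice. Psmg1, Psmg2, Psmd5, Psmd9 and Psmd10 did not pass, and Psmg2, which pairs with Psmg1, was the next highest at 0.26 ± 0.0610 and 0.20 ± 0.0610. Of the other activators and inhibitors, Psme3 and Psme4 were lowest, at -0.097 and -0.064 in WT mice and -0.27 and -0.17 in Txnip-/- mice, and the inhibitor Psmf1 was highest at 0.18 and 0.26. None of the 3 was called, though Psme3 and Psmf1 had adjusted p = 0.0027 and 0.00546 in Txnip-/- mice by limma, and Psmf1 0.0359 in WT mice. In Txnip-/- mice, median centering called Psmg3, Psme3 and Psme4 lower, and upper-quartile scaling Psme3. Psmc3ip stayed at 1.85 to 2.96 TPM and did not pass in any comparison.

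**Figure D4:**
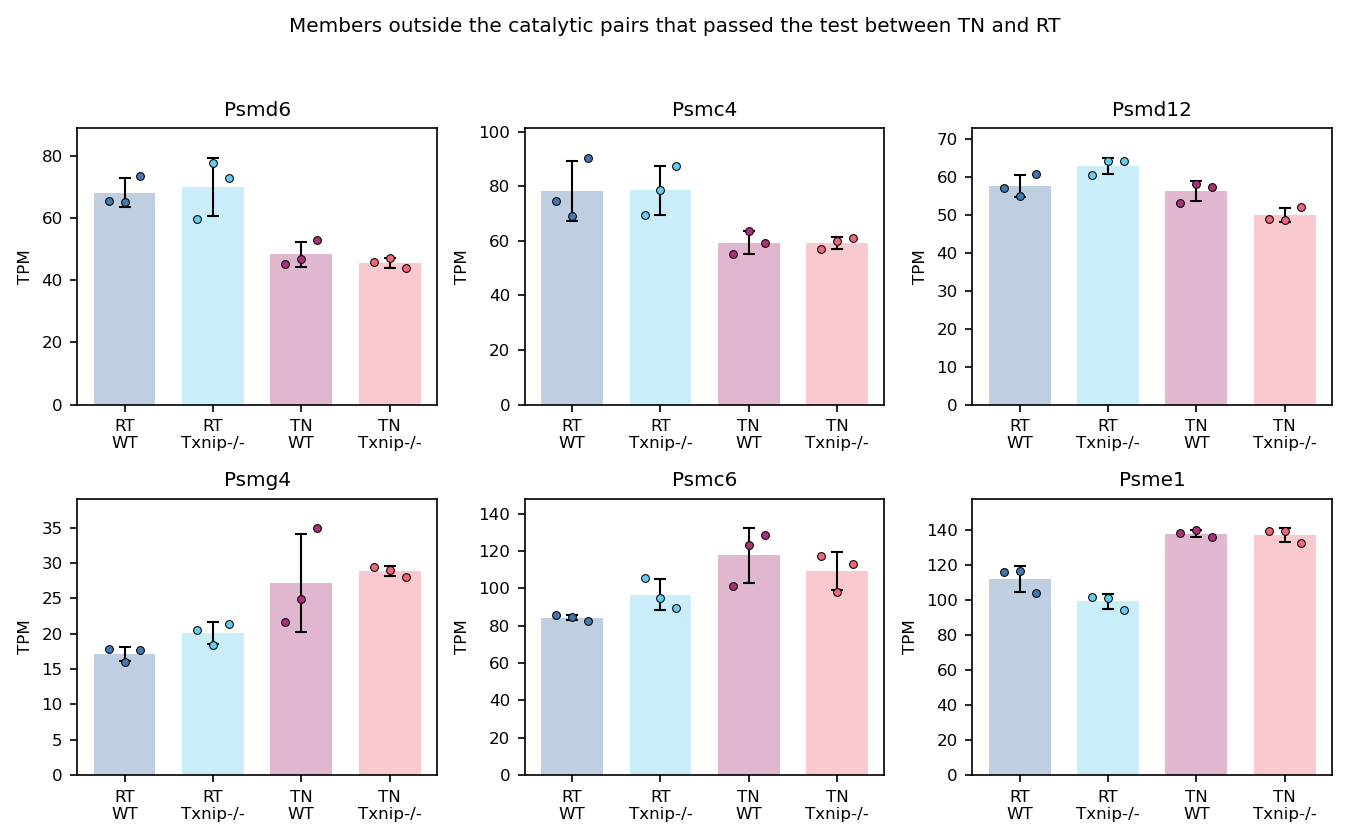
TPM by group of the 6 members outside the catalytic pairs that passed the test between TN and RT in at least 1 genotype; dots are libraries, bars group means and error bars the SD (n = 3 libraries). Psmd6 and Psmc4 are lower in every TN library, Psmg4 and Psme1 higher in every TN library, and Psmd12 and Psmc6 passed in 1 genotype each.

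Nfe2l1, the transcription factor that induces proteasome subunits, measured 189, 203 and 196 TPM in WT mice at RT, 183, 201 and 213 in Txnip-/- mice at RT, 173, 186 and 185 in WT mice at TN and 158, 175 and 183 in Txnip-/- mice at TN. Within each genotype the TN libraries lay below the RT libraries. The log2 fold change of TN over RT was -0.11 ± 0.0715 in WT mice (adjusted p = 0.216) and -0.21 ± 0.0715 in Txnip-/- mice (adjusted p = 0.0279), both inside the fold limit, and median centering called it lower in Txnip-/- mice (-0.40, adjusted p = 0.0012). Transcript level does not report the processing that activates the protein. In a list of 7 genes that act on Nfe2l1 or its processing and the related factor Nfe2l2, 2 rose and 2 fell at TN in WT mice, and 1 rose and 2 fell in Txnip-/- mice, where 31.4% of all genes rose and 6.39% fell in WT mice and 30.9% and 8.27% in Txnip-/- mice. Ddi2, the protease that cleaves Nfe2l1, fell by 0.62 in WT and 0.69 in Txnip-/- mice, from 14.6 and 14.9 TPM to 9.15 and 8.95 (adjusted p = 0.00253 and 0.00107). Syvn1, an ER ubiquitin ligase, fell by 0.59 and 0.49, Ogt, the O-GlcNAc transferase, rose by 0.86 and 0.76, and the deglycosylase Ngly1 rose by 0.35 in WT mice and was at 0.15 in Txnip-/- mice, with an interaction of -0.20 ± 0.111 (adjusted p = 0.48) that did not pass.

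The second comparison asked whether loss of Txnip altered the proteasome at either temperature. No member passed the limma test between genotypes at RT or at TN (0 of 49 each). At RT, 0.760% of 11980 genes were called higher and 0.726% lower in Txnip-/- mice, and at TN 6.49% of 12891 and 2.17%. The paper's own test (DESeq2) at the same limits reported more changed genes at each temperature than the 178 and 1116 called here. The lack of calls among members thus need not hold for that test. An unadjusted p under 0.05 was found for 8 of 49 members at RT and 1 of 49 at TN, against 16.04% and 25.6% of all genes. Fitting all 12 libraries together, or the authors' log-scale values, also called none. The genotype groups did not overlap for 15 of 49 members at RT and 2 of 49 at TN, against 22.6% and 31.1% of all genes. The 2 at TN were Psmd12, lower in Txnip-/- mice (-0.17 ± 0.0657, adjusted p = 0.15), and Psmd13, higher (0.16 ± 0.0720, 0.199); the 15 at RT comprised 13 with higher and 2 with lower values in Txnip-/- mice. The interaction passed for 0 of 49 members by limma, and for 0.00801% of 12486 genes. Its unadjusted p was under 0.05 for 2 of the 49 (Psma6 and Psmd12), against 12.6% of all genes.

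At RT, the class medians of Txnip-/- over WT were 0.097 for the 20S core, 0.13 for the immunoproteasome and 0.034 for the 19S cap on the log2 scale, against 0.033 for all genes. Without Txnip-/- replicate 3 the immunoproteasome median was 0.034, near that of all genes. Core subunits ran from -0.030 (Psmb5) to 0.19 (Psma2), and cap subunits from -0.048 (Psmd8) to 0.21 (Psmc1). Assembly factors ran from -0.017 (Psmd10) to 0.21 (Psmg4), and the other regulators from -0.056 (Psme4) to 0.13 (Psme3). In the immunoproteasome class the values diverged, from -0.17 ± 0.0664 for Psme1 (adjusted p = 0.263) to 0.21 ± 0.0771 for Psmb10 (0.25). Libraries of Txnip-/- mice at RT also held more transcripts of 4 skeletal muscle genes, which summed to 14.6 to 33.5 TPM against 2.30 to 2.73 in WT mice, and the part of muscle in these values was not tested.

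At TN, the medians were 0.0061, 0.22 and 0.014, against 0.0078 for all genes. Psmb8, Psmb9 and Psmb10 had Txnip-/- over WT log2 fold changes of 0.29 ± 0.216, 0.27 ± 0.179 and 0.22 ± 0.162, with adjusted p = 0.462, 0.394 and 0.459 by limma, and their groups overlapped. The interactions of genotype and temperature for the 3 genes were 0.14 ± 0.257, 0.15 ± 0.230 and 0.011 ± 0.198 (adjusted p = 0.847, 0.82 and 0.986). Leaving out 1 TN library at a time gave an immunoproteasome median from 0.015 to 0.36, the lowest without WT replicate 1, so the size of this difference rests on that library. Core subunits ran from -0.079 (Psmb7) to 0.11 (Psmb1), and cap subunits from -0.17 (Psmd12) to 0.16 (Psmd13). Assembly factors ran from -0.12 (Psmd5) to 0.11 (Psmg4), and the other regulators from -0.16 (Psme4) to 0.12 (Psmf1). Nfe2l1 was at -0.077 ± 0.0762 at TN and 0.023 ± 0.0672 at RT (adjusted p = 0.586 and 0.914). Over the same contrast, the brown adipocyte genes summed to 6692 to 7587 TPM in WT mice and 3689 to 4305 TPM in Txnip-/- mice.

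**Figure D5:**
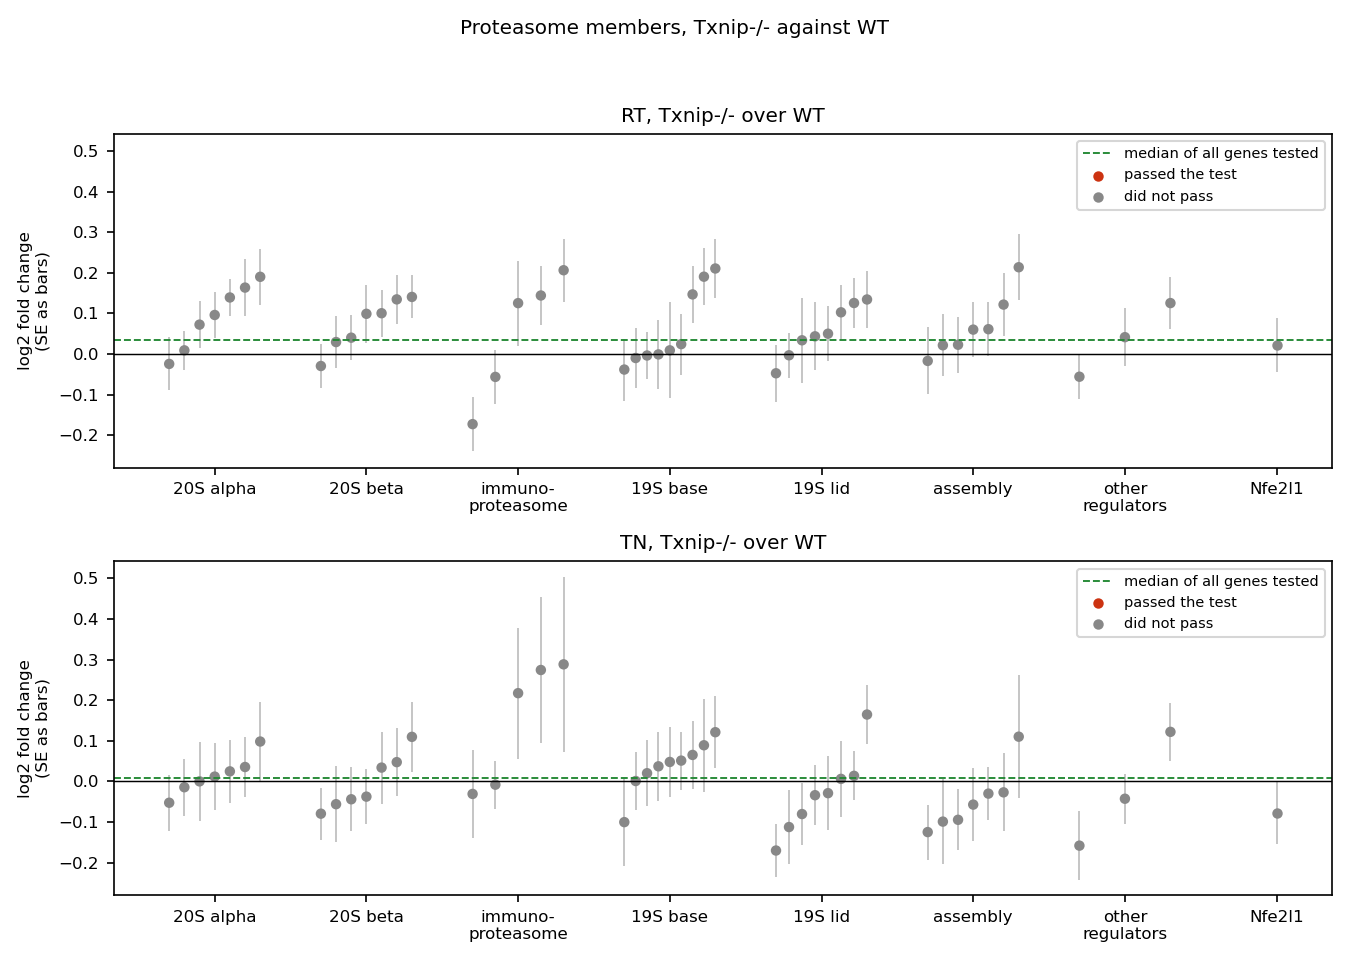
Log2 fold change of Txnip-/- over WT for the tested members except Psmc3ip and Psme2b, grouped by class, at RT (top) and TN (bottom); each dot is a gene, error bars are SE, and the dashed line is the median of all genes tested. No dot is red, as no member passed, and the largest values at TN are those of Psmb8, Psmb9 and Psmb10, which also carry the widest errors.

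Other genes that act with the proteasome were taken as whole lists. Of 13 genes of antigen processing and its regulators, 8 rose at TN in WT mice and 10 in Txnip-/- mice, against 31.4% and 30.9% of all genes, and none fell. The median log2 fold change of the 13 was 0.42 and 0.60. H2-D1 and H2-K1, MHC class I heavy chains whose reads may be split among near-identical family members, rose by 0.71 and 0.66 in WT mice and by 1.36 and 1.28 in Txnip-/- mice. B2m, their light chain, rose by 0.82 and 1.26, and Tap1 by 0.70 and 1.19. Irf1, a transcription factor induced by interferon, rose by 0.90 and 0.92, from mean levels of 19.1 and 20.6 TPM at RT to 36.7 and 39.7 TPM at TN. None of the 13 was called by limma between genotypes at either temperature, against 0.760% higher and 0.726% lower among all genes at RT and 6.49% and 2.17% at TN. An unadjusted p under 0.05 was found for 0 of them at RT and 3 at TN, against 16.04% and 25.6% of all genes. The interaction of genotype and temperature passed for 0 of the 13, against 0.00801% of all genes, so a larger rise in Txnip-/- mice was not shown. For the interaction, 3 of the 13 had an unadjusted p under 0.05 by limma, against 12.6% of all genes.

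Among 11 proteasome-bound factors with a row in the table, 3 rose and 2 fell at TN in WT mice, and 1 rose and 1 fell in Txnip-/- mice. Among all genes, 31.4% rose and 6.39% fell in WT mice, and 30.9% and 8.27% in Txnip-/- mice. Zfand5, a proteasome-activating zinc finger protein, rose by 0.71 and 0.46 in WT and Txnip-/- mice, and Adrm1, a ubiquitin receptor of the cap, fell by 0.33 and 0.42. The deubiquitinases Usp14 and Uchl5 rose by 0.52 and 0.37 in WT mice and Zfand2a fell by 0.35, with values in Txnip-/- mice of 0.28, -0.011 and -0.016 that were not called, Usp14 on the fold limit alone (adjusted p = 0.00183). Their interactions of genotype and temperature were -0.24 ± 0.0801, -0.39 ± 0.114 and 0.34 ± 0.170 (adjusted p = 0.28, 0.228 and 0.442), so a difference between genotypes was not shown. Of 11 ubiquitin and shuttle genes, 2 rose and 1 fell in WT mice and 2 rose and 2 fell in Txnip-/- mice, to be read against the same shares. Ddi2 belongs to this list and to the Nfe2l1 list, so its falls are counted in both. Rps27a, a ubiquitin and ribosomal protein fusion gene, rose by 0.50 and 0.49, and the shuttle Ubqln2 by 0.47 and 0.62. Ubqln4 fell by 0.38 in Txnip-/- mice and was at -0.16 in WT mice, with an interaction of -0.22 ± 0.0883 (adjusted p = 0.336) that did not pass. No gene of these 2 lists or of the Nfe2l1 list was called by limma between genotypes, against 0.760% higher and 0.726% lower among all genes at RT and 6.49% and 2.17% at TN. An unadjusted p under 0.05 was found at RT and TN for 2 and 3 of the 11 proteasome-bound factors, 1 and 2 of the 11 ubiquitin and shuttle genes and 0 and 1 of the 8 genes of the Nfe2l1 list, against 16.04% and 25.6% of all genes.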

How the data were processed

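RNA was sequenced from interscapular BAT in 12 libraries (poly-A selection, single-end 75-base reads). Per the labels and the methods, the authors aligned reads to mm10 with STAR 2.7.5a and counted exons with HOMER 4.11.1; whether strand was used was not given in the sources used here. The deposited TPM values were the main measurement, with listed genes summing to 55.38 to 57.55% of the total to which TPM is scaled. The authors also deposited log2 values for each temperature (the transform was not named), used here as an alternative; 8 members at each temperature were listed there under another transcript. Their columns of fold changes and p-values were not used.

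Tests were limma 3.58.1 (trend) in R 4.3.3 on log2(TPM + 1), for genes averaging 1 TPM or more in the libraries compared, with Benjamini-Hochberg adjustment over all genes tested, on 6 libraries between genotypes and on all 12 for temperature and interaction. A call needed a fold change below 0.8 or above its reciprocal, the limits of the study, and adjusted p under 0.05. The code was tested on simulated data. Ratios of catalytic pairs used exact permutation tests. Members, gene lists and tests were chosen with earlier results of these data known. Values in every library are given for members called in any comparison, the 6 catalytic subunits, Psme1, Psme2 and Nfe2l1, and for the other classes the highest and lowest member; of other lists at most 5 called genes are named. Shared 75-base runs were counted in GENCODE M21 transcripts. Alternatives covered the pseudocount, the filter, scaling, blocking and left-out libraries.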

Additional observations from a re-analysis of the deposited data

How the results depend on the processing

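Counts of members that passed kept within 1.5 times of the reported ones under log2(TPM + 0.1), no filter on TPM, TPM of at least 1 in every library, upper-quartile scaling, single-genotype fits of the temperature comparisons (chosen after seeing the data) and each left-out library. Without the fold limit the counts between TN and RT were 13 of 49 in WT and 16 of 49 in Txnip-/- mice, against 40.4% of all genes higher and 9.87% lower, and 37.9% and 13.5%. With median centering the count was 16 in Txnip-/- mice, against 18.4% and 19.5%. The RT, TN and interaction counts were 0 under every alternative. Upper-quartile scaling and median centering moved the TN over RT medians of the 20S core to -0.14 and -0.23 in WT and -0.21 and -0.32 in Txnip-/- mice, and those of the 19S cap to -0.11 and -0.19, and -0.11 and -0.22. Median centering moved the immunoproteasome median in Txnip-/- mice to 0.89. Both alternatives scale or shift all genes of a library by one common value. With single libraries left out, the immunoproteasome median ran from 0.034 to 0.18 between genotypes at RT and 0.93 to 1.26 between temperatures in WT mice, the core median in WT mice from -0.095 to 0.056, and the cap median in Txnip-/- mice from -0.091 to -0.014. Values near 0 changed sign. Nfe2l1 at RT was -0.0014 with upper-quartile scaling, -0.0056 with median centering, -0.023 with the authors' log-scale values and -0.027 to 0.080 with libraries left out. The left-out ranges were -0.020 to 0.015 for Psme1 and -0.14 to 0.038 for Psme2 between genotypes at TN, and -0.14 to 0.042 and -0.11 to 0.019 for Psme2 between temperatures in WT and Txnip-/- mice. The log2 ratios of the catalytic pairs moved by less than the spread between replicates. Libraries with the same replicate number deviated together with r from -0.13 to 0.30 over 12 pairs, so the numbers were not taken to pair the samples. With a replicate block, the counts were 7 in WT and 8 in Txnip-/- mice between temperatures, against 37.5% and 39.4% of all genes, and 0 between genotypes and in the interaction, against 0.835% at RT, 7.58% at TN and 0.0320%. TPM values keep no read counts, so counting error could not be given.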
